A study of Mus musculus with 12 samples.

Results

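The genes described here are 10 ligands and receptors through which a dendritic cell controls the T cell that it contacts: *Cd80*, *Cd86*, *Cd40*, *Cd274*, *Pdcd1lg2*, *Icosl*, *Tnfsf9*, *Tnfsf4*, *Cd70* and *Icam1*. They were chosen by name, and each symbol matched 1 row of the merged count table, so that they make up 10 of its 55471 genes. All 10 were among the 18228 genes tested, but *Cd70* reached the minimum count in 1 group only, the group in which it is highest, so counts and medians of the members are given below for the other 9. RNA was sequenced from bone marrow-derived dendritic cells (BMDCs), which are grown from C57BL/6 mouse marrow with GM-CSF and carry a retroviral short hairpin RNA. The hairpin was either a control against firefly luciferase (shControl) or one that targets *Ppargc1b*, which encodes the transcriptional coactivator PGC-1β (sh*Ppargc1b*), and the cells were sorted on the human CD8 reporter of the vector. Each kind of cell was left unstimulated or given interferon-β (IFN-β) for 6 h, which gives 4 groups of 3 libraries: shControl, sh*Ppargc1b*, shControl with IFN-β and sh*Ppargc1b* with IFN-β. The 1 hairpin is a knockdown and not a deletion, every group carries the vector, and the labels do not say whether the 3 libraries of a group came from separate mice or cultures, so the p-values measure only the spread between these libraries.

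A T cell needs a second signal besides its antigen receptor. CD80 and CD86 deliver it through CD28 and are also bound by CTLA-4, the TNF family ligands OX40L (*Tnfsf4*), the CD137 ligand (*Tnfsf9*) and CD70 and the ICOS ligand (*Icosl*) prolong it, and PD-L1 (*Cd274*) and PD-L2 (*Pdcd1lg2*) restrain it through PD-1. CD40 is the receptor by which the T cell in turn activates the dendritic cell, and ICAM-1 binds the integrin LFA-1 and holds the contact together. Maturing dendritic cells, and cells exposed to type I interferon, are known to raise several of these molecules.

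The members lie on 7 chromosomes (GRCm38). *Cd274* (chr19:29367455-29388095, plus strand) and *Pdcd1lg2* (chr19:29410919-29471161, plus strand) are neighbours 22.8 kb apart, and *Tnfsf9* (chr17:57105325-57107757, plus strand) and *Cd70* (chr17:57145997-57149777, minus strand) are 38.2 kb apart. *Cd86* (chr16:36603869-36666081, minus strand) and *Cd80* (chr16:38455561-38496335, plus strand) share a chromosome. The others are *Cd40* (chr2:165055627-165072948, plus strand), *Icosl* (chr10:78069302-78083913, plus strand), *Tnfsf4* (chr1:161395409-161418410, plus strand) and *Icam1* (chr9:21015985-21028817, plus strand). An antisense or intergenic RNA gene on the opposite strand overlaps *Cd274*, *Pdcd1lg2*, *Tnfsf9* and *Icam1*. For *Tnfsf9* the overlapping gene Gm11110 shares 192 bases of exon and had 348 to 584 counts per library against 431 to 866 for *Tnfsf9* itself. The strand setting of the counting is not given in the sources used here, so reads of such pairs may not be told apart.

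RefSeq promoter entries (GRCm38.p6, 250 bases before and 50 bases from the transcription start) were matched for 5 members, *Cd80*, *Cd274*, *Pdcd1lg2*, *Icosl* and *Icam1*. Both strands were searched for the interferon-stimulated response element (ISRE, GAAA and GAAA with any 2 bases between), the gamma-activated site (GAS, TTCNNNGAA) and the NF-κB consensus. The following 3 are shown because *Cd274* and *Icam1* more than doubled with IFN-β in shControl cells, as described further on, whereas *Pdcd1lg2*, the neighbour of *Cd274*, changed far less. Capitals mark a motif match.
*Cd274* (chr19:29367188-29367487, plus strand): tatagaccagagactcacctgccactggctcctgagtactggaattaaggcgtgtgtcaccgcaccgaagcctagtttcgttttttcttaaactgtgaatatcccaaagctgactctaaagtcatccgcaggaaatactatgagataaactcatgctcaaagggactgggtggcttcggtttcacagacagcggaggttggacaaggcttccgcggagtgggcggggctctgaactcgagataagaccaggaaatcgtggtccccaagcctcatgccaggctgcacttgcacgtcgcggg
*Pdcd1lg2* (chr19:29410669-29410968, plus strand): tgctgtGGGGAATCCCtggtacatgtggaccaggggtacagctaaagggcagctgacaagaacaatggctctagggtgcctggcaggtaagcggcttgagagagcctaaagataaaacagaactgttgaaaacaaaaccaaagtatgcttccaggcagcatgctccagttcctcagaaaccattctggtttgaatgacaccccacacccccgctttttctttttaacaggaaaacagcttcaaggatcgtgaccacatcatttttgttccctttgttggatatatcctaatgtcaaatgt
*Icam1* (chr9:21015690-21015989, plus strand): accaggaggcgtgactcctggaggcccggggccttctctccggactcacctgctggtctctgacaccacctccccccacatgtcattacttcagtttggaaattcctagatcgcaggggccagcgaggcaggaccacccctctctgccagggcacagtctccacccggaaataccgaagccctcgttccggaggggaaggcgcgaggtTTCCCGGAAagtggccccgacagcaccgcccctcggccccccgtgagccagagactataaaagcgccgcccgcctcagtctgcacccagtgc
The *Icam1* window held a GAS match, TTCCCGGAA, at -42 to -34 from the start, and the *Pdcd1lg2* window an NF-κB match, GGGGAATCCC, at -244 to -235. Neither *Cd274* nor *Cd80* had a match in its window, and *Icosl* had an NF-κB match, GGAGCTCCCC, at -111 to -102. Among 32851 RefSeq promoters of the same length, 3.44% held the ISRE letters, 8.3% the GAS letters and 11.2% the NF-κB consensus, so a match is a description of the letters and not evidence of binding.

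The libraries held 49919648 to 77726101 counts. Levels below are CPM, counts scaled to the TMM-adjusted library size, changes are log2 fold changes with their SE, and a gene was called when the adjusted p of the edgeR test over all tested genes was under 0.05. The target *Ppargc1b* was at 33.3 to 36.7 CPM in shControl and 18.6 to 20.3 CPM in sh*Ppargc1b* libraries (-0.83 ± 0.10, adjusted p = 3.2e-05), and under IFN-β at 23.6 to 31.4 and 15.5 to 20.9 CPM (-0.57 ± 0.11, adjusted p = 9.5e-04). Replicate 2 of sh*Ppargc1b* with IFN-β differed more from the other 2 libraries of its group than any other replicate did from its own. In bulk RNA, fewer cells of a type and less RNA per cell cannot be told apart.

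Per kilobase of exon, *Cd274* was the most abundant member in all 4 groups and *Cd70* the least. In shControl cells the levels, as reads per kilobase of exon scaled to library size (RPKM, mean ± SD, n = 3), ran from *Cd274* at 135 ± 9.14 through *Icam1* at 34.8 ± 0.897, *Pdcd1lg2* at 28.3 ± 2.14, *Cd80* at 13.4 ± 0.913 and *Cd86* at 11.2 ± 0.202 to *Icosl* at 7.45 ± 0.123, *Tnfsf9* at 6.42 ± 0.658, *Tnfsf4* at 5.13 ± 0.486, *Cd40* at 1.18 ± 0.123 and *Cd70* at 0.0823 ± 0.0911. No neighbours in that order overlapped among the shControl libraries. The order changed between groups mainly through *Cd86*, *Tnfsf4* and *Cd40*. In shControl cells with IFN-β, *Cd86* at 49.2 ± 0.603 RPKM stood above *Pdcd1lg2* at 35.8 ± 1.73, and *Cd40* at 18.9 ± 1.36 and *Tnfsf4* at 18.5 ± 1.74 overlapped each other, both above *Cd80* at 16.4 ± 0.595. In sh*Ppargc1b* cells with IFN-β, *Tnfsf4* reached 36.7 ± 2.89 RPKM and overlapped *Pdcd1lg2* at 38.3 ± 3.52. The other neighbours that overlapped were *Cd80* and *Tnfsf4* in unstimulated sh*Ppargc1b* cells, and *Icosl* and *Tnfsf9* in both IFN-β groups.

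**Figure D1:**
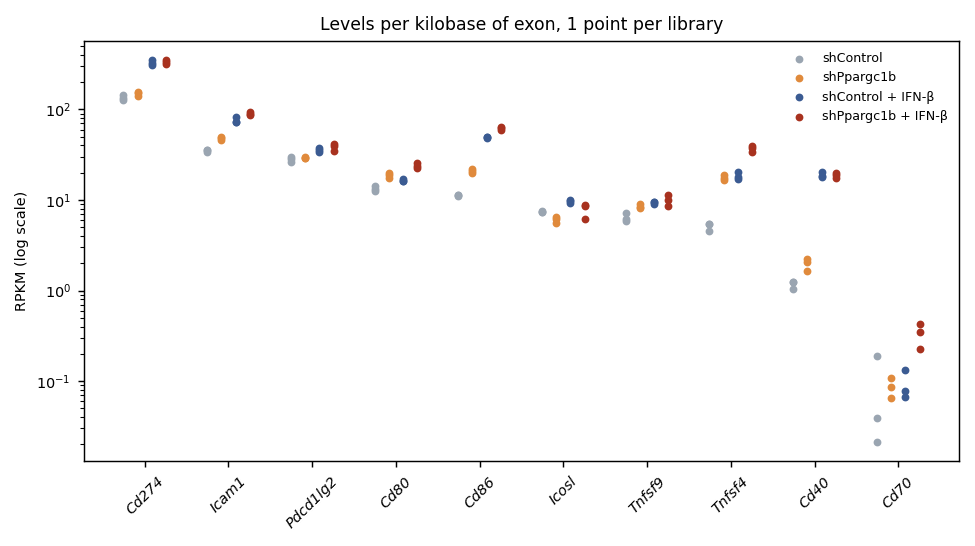
Level of each member per kilobase of exon (RPKM, log scale), with 1 point per library and 4 colours for the 4 groups. *Cd274* lies highest and *Cd70* lowest in every group, and *Tnfsf4* moves from 5.13 RPKM on average in shControl cells to 36.7 in sh*Ppargc1b* cells with IFN-β.

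The first comparison asks what the *Ppargc1b* hairpin did to these genes in unstimulated cells. *Tnfsf4*, *Cd86*, *Cd40*, *Cd80*, *Icam1* and *Tnfsf9* were higher in sh*Ppargc1b* than in shControl cells, by log2 fold changes of 1.79 to 0.40, and no member was called lower. The 6 of 9 members called higher stand beside 12.4% of all genes tested called higher, and beside 16.6% of the genes whose mean log2 CPM was 3 or more, as it was for these 9. For calls in the lower direction the share of all genes was 11.1%. The median log2 fold change was 0.47 over the 9 members and -0.005 over all genes. The groups did not overlap for 7 members, 6 of them higher and 1 (*Icosl*) lower, against 18.4% of all genes in each direction.

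OX40L, encoded by *Tnfsf4*, engages OX40 on activated T cells and showed the largest change. The shControl libraries had 9.99, 8.42 and 9.95 CPM and the sh*Ppargc1b* libraries 34.9, 30.7 and 32.2 CPM. Every sh*Ppargc1b* library was thus more than 3 times the highest shControl library, and the log2 fold change was 1.79 ± 0.09 (adjusted p = 4.7e-09). The other TNF ligand with a measurable level, *Tnfsf9*, went from 7.94, 9.24 and 7.64 CPM to 11.7, 10.7 and 10.4 CPM. These groups did not overlap either, and the change was 0.40 ± 0.10 (adjusted p = 0.0070).

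Of the B7 pair, *Cd86* moved more than *Cd80*. *Cd86* was at 41.2, 40.3 and 41.8 CPM in shControl and at 80.1, 76.7 and 73.5 CPM in sh*Ppargc1b* libraries, a change of 0.90 ± 0.04 (adjusted p = 4.7e-09). *Cd80* was at 49.2, 46.4 and 53.1 CPM in shControl and at 72.8, 64.1 and 70.5 CPM in sh*Ppargc1b* libraries, a change of 0.48 ± 0.06 (adjusted p = 4.4e-05). Neither gene overlapped between the groups, and per kilobase the ratio of *Cd86* to *Cd80* went from 0.840 ± 0.0419 to 1.13 ± 0.0785 (SD, n = 3), so that *Cd86*, the lower of the pair in shControl cells, became the higher. The exact permutation test of this ratio gave p = 0.1 (two-sided), the smallest value that 3 against 3 libraries allow.

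*Cd40*, the receptor for CD40 ligand, was low in unstimulated cells, at 4.27, 4.24 and 3.53 CPM in shControl and 5.57, 7.09 and 7.66 CPM in sh*Ppargc1b* libraries. The sh*Ppargc1b* libraries were all higher, but spread more, and the change was 0.76 ± 0.11 (adjusted p = 1.4e-04). *Icam1*, the adhesion ligand, went from 147, 154 and 154 CPM to 201, 216 and 213 CPM, without overlap (0.47 ± 0.05, adjusted p = 7.4e-06).

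The PD-1 ligands moved less. *Cd274* had 479, 526 and 463 CPM in shControl and 551, 571 and 507 CPM in sh*Ppargc1b* libraries, which overlap. Its change of 0.15 ± 0.06 was not called (adjusted p = 0.094, 95% interval 0.02 to 0.28), although 4 of 19 other settings called it, with adjusted p from 0.0024 to 0.304. *Pdcd1lg2* had 59.2, 50.9 and 56.3 CPM against 57.1, 57.3 and 58.9 CPM, and its change of 0.06 ± 0.07 was not called (adjusted p = 0.593, 95% interval -0.08 to 0.20). *Icosl*, the ligand of ICOS, was the 1 member lower in every sh*Ppargc1b* library, with 35.1, 34.0 and 34.2 CPM against 30.3, 26.0 and 28.4 CPM. The change of -0.29 ± 0.10 lay just outside the threshold (adjusted p = 0.052) and passed it in several other settings (adjusted p from 7.2e-04 to 0.187). *Cd70*, the ligand of CD27, had 9, 2 and 1 counts in shControl and 5, 5 and 4 counts in sh*Ppargc1b* libraries, so no difference was detectable at this depth.

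**Figure D2:**
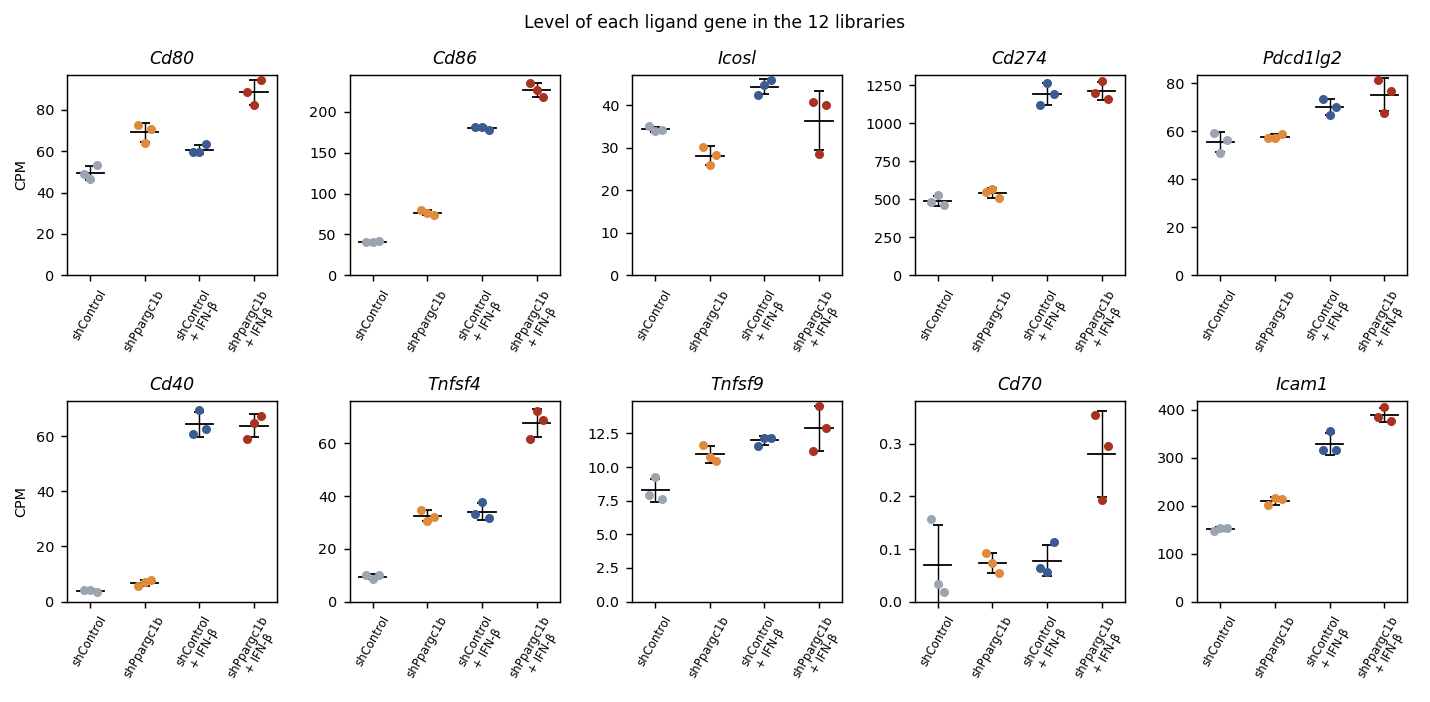
CPM of each of the 10 members (linear axes that start at 0), with 1 point per library, the mean as a line and the SD as an error bar (ended at 0 for *Cd70*) for each of the 4 groups. *Tnfsf4* and *Cd86* separate by hairpin in both states, whereas *Cd274* separates by IFN-β and not by hairpin, at 463 to 571 CPM without and 1117 to 1279 CPM with IFN-β.

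The same hairpin comparison was made among the cells given IFN-β. *Tnfsf4*, *Cd80*, *Cd86* and *Icam1* were again higher in sh*Ppargc1b* cells, by 0.99 to 0.24, whereas *Cd40* and *Tnfsf9* were not called. Of 9 members 4 were called higher and 1, *Icosl*, lower, beside 11.5% and 12.7% of all genes tested. Among genes whose mean log2 CPM was 3 or more, the share called higher was 14.6%. The median of the 9 was 0.10, against -0.011 for all genes, and the groups did not overlap for 4 members in the higher and 1 in the lower direction, against 18% and 20.7% of all genes.

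*Tnfsf4* stood at 33.2, 37.7 and 31.5 CPM in shControl and at 61.7, 72.1 and 68.8 CPM in sh*Ppargc1b* libraries with IFN-β, a change of 0.99 ± 0.08 (adjusted p = 8.0e-07). *Cd80* stood at 59.5, 59.4 and 63.3 CPM against 88.6, 82.5 and 94.6 CPM (0.54 ± 0.06, adjusted p = 1.5e-05). For both genes the lowest sh*Ppargc1b* library was well above the highest shControl library. *Cd86* stood at 181, 181 and 178 CPM against 236, 226 and 218 CPM (0.33 ± 0.04, adjusted p = 2.7e-05), and *Icam1* at 316, 355 and 316 CPM against 385, 405 and 375 CPM (0.24 ± 0.05, adjusted p = 0.0024). These groups did not overlap either, but were closer together on the log2 scale than without IFN-β. Without replicate 2 of the sh*Ppargc1b* libraries, which stands apart, the changes were 0.93 for *Tnfsf4*, 0.58 for *Cd80*, 0.32 for *Cd86* and 0.20 for *Icam1* (adjusted p = 2.4e-06, 1.4e-05, 1.5e-04 and 0.0127). The unstimulated sh*Ppargc1b* libraries, at 30.7 to 34.9 CPM of *Tnfsf4*, overlapped the shControl libraries with IFN-β, at 31.5 to 37.7 CPM.

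*Cd40* had 60.7, 69.5 and 62.5 CPM in shControl and 59.1, 64.9 and 67.4 CPM in sh*Ppargc1b* libraries with IFN-β. The groups overlapped, and the change was -0.01 ± 0.09 (adjusted p = 0.953, 95% interval -0.19 to 0.17). *Tnfsf9*, at 11.6, 12.2 and 12.2 CPM against 11.2, 14.6 and 12.9 CPM, overlapped as well (0.10 ± 0.10, adjusted p = 0.487, 95% interval -0.10 to 0.31). *Cd274* had 1117, 1266 and 1190 CPM against 1201, 1279 and 1162 CPM, and *Pdcd1lg2* 73.6, 66.8 and 70.0 CPM against 81.3, 67.7 and 76.6 CPM. Both PD-1 ligands overlapped between the hairpins, with 95% intervals of -0.10 to 0.16 and -0.04 to 0.24 for the log2 fold change (adjusted p = 0.796 and 0.308). A change of *Cd274* of the size seen for *Tnfsf4* or *Cd80* lies outside that interval.

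*Icosl* had 42.4, 44.8 and 46.1 CPM in shControl and 40.8, 28.5 and 40.0 CPM in sh*Ppargc1b* libraries with IFN-β. Its call (-0.29 ± 0.10, adjusted p = 0.0497) was lost in 12 of 19 other settings, among them library totals (adjusted p = 0.0820) and the fit of the 2 groups alone (adjusted p = 0.119), and the adjusted p ran from 3.7e-04 to 0.133. Most of these settings left the change near -0.27, but without replicate 2 of the sh*Ppargc1b* libraries it was -0.15 (adjusted p = 0.109). *Cd70* had 3, 3 and 8 counts in shControl and 18, 11 and 16 counts in sh*Ppargc1b* libraries, a change of 1.76 ± 0.56 (adjusted p = 0.0327). It entered the test only through the group in which it is high, so its call is no support for a difference, and removal of 1 library ended it for 5 of the 12 (adjusted p up to 0.116).

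**Figure D3:**
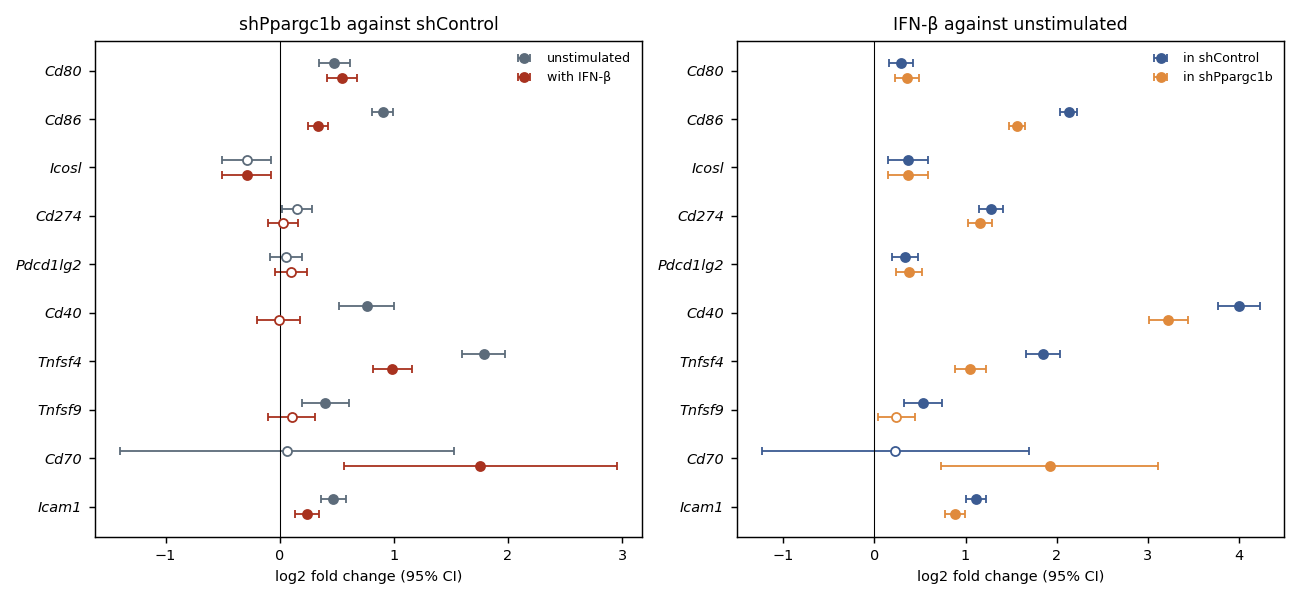
Log2 fold change of each member with its 95% interval in the hairpin comparison without and with IFN-β and in the IFN-β comparison within each hairpin, with filled points for an adjusted p under 0.05 and open points otherwise. Apart from *Cd70*, whose few counts give wide intervals, *Tnfsf4* has the largest hairpin change (1.79 without and 0.99 with IFN-β) and *Cd40* the largest IFN-β change (4.0 in shControl and 3.23 in sh*Ppargc1b* cells).

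Whether the hairpin effect itself differed between the 2 states was tested as an interaction, the log2 change with IFN-β minus that without. It was called for *Tnfsf4* (-0.80 ± 0.12, adjusted p = 0.0065), *Cd40* (-0.77 ± 0.14, adjusted p = 0.0214) and *Cd86* (-0.57 ± 0.06, adjusted p = 7.4e-04), all lower with IFN-β. These 3 of 9 members stand beside 0.669% of all genes tested that were called in that direction and 0.73% in either, and beside 1.25% called in that direction among genes whose mean log2 CPM was 3 or more. The *Tnfsf4* and *Cd86* interactions were called in every other setting, with adjusted p up to 0.0239 and 0.00516, whereas that of *Cd40* dropped out on removal of 1 library for 5 of the 12 (adjusted p from 9.1e-11 to 0.103). For *Icam1* (-0.23 ± 0.07, adjusted p = 0.188), *Tnfsf9* (-0.30 ± 0.14, adjusted p = 0.465), *Cd274* (-0.12 ± 0.09, adjusted p = 0.702) and *Cd80* (0.06 ± 0.09, adjusted p = 0.893) the interaction was not called. For *Icam1* 2 of 18 other settings called it, no low-count filter (adjusted p = 0.0435) and a block by run of library codes (adjusted p = 0.0345). The 95% interval of the *Cd80* interaction, -0.12 to 0.25, leaves out a fall of the size seen for *Cd86*.

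The picture depends on the scale for *Cd86* and *Tnfsf4*. Read as a difference of CPM, sh*Ppargc1b* minus shControl, *Cd86* gained 35.7 ± 1.96 CPM (SE) without and 46.6 ± 5.32 CPM with IFN-β, and *Tnfsf4* gained 23.2 ± 1.34 CPM and 33.4 ± 3.59 CPM. Their smaller fold change with IFN-β went with a CPM difference whose mean was larger, by 10.9 ± 5.67 CPM for *Cd86* and 10.3 ± 3.83 CPM for *Tnfsf4*. *Icam1* gained 58.3 ± 5.15 CPM and 59.4 ± 15.9 CPM, values that differ by less than their error. The *Cd40* differences, 2.76 ± 0.67 CPM without and -0.464 ± 3.63 CPM with IFN-β, were also apart by less than the error of their difference. Differences between the CPM gains were not tested.

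**Figure D4:**
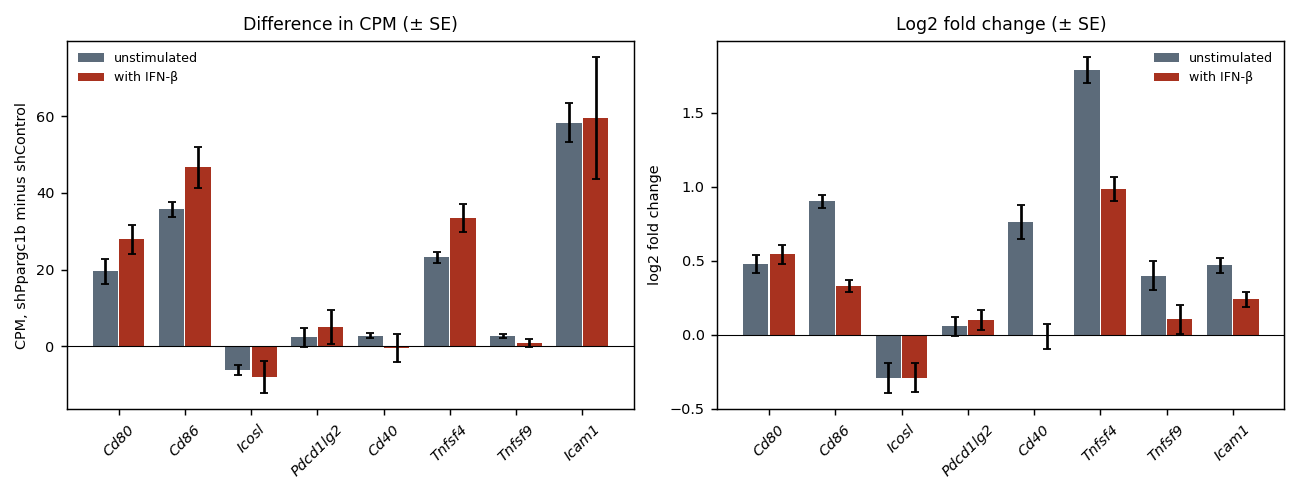
The hairpin effect on 8 members (without *Cd274* and *Cd70*, whose levels lie far from the rest) in both states, as a difference in CPM and as a log2 fold change, with error bars of 1 SE. *Cd86* falls from 0.90 to 0.33 on the log2 scale while its CPM difference goes from 35.7 to 46.6.

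The response to IFN-β was compared within each hairpin. In shControl cells all 9 members counted were higher after IFN-β and none was called lower, beside 23.7% of all genes called higher and 34% of those whose mean log2 CPM was 3 or more. Called lower were 24.6% of all genes. The groups did not overlap for 9 members, against 27.2% of all genes in that direction. In sh*Ppargc1b* cells 8 of 9 were called higher and none lower, beside 21.4% and 21.2% of all genes and 31.5% higher among those above that level, and 7 did not overlap, against 24.7%. The medians of the 9 were 1.12 and 0.89, against -0.034 and -0.018 for all genes.

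*Cd40* rose most, from about 4 to about 64 CPM in shControl cells (4.0 ± 0.11, adjusted p = 6.1e-14), while the rise in sh*Ppargc1b* cells was 3.23 ± 0.10 (adjusted p = 4.5e-13). *Cd86* rose by 2.13 ± 0.04 and 1.56 ± 0.04 (adjusted p = 3.4e-15 and 1.1e-13), and *Tnfsf4* by 1.85 ± 0.09 and 1.05 ± 0.08 (adjusted p = 6.7e-11 and 3.1e-08). For these 3 genes the smaller rise in sh*Ppargc1b* cells is the interaction given above, since the same 4 groups enter it. *Cd274* rose by 1.28 ± 0.06 and 1.16 ± 0.06 (adjusted p = 8.8e-11 and 4.0e-10), and *Icam1* by 1.12 ± 0.05 and 0.89 ± 0.05 (adjusted p = 4.4e-11 and 9.3e-10).

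*Tnfsf9*, *Cd80*, *Icosl* and *Pdcd1lg2* changed by less than 0.6. *Tnfsf9* rose by 0.53 ± 0.10 in shControl cells (adjusted p = 2.9e-04), and in sh*Ppargc1b* cells its change of 0.24 ± 0.10 was not called (adjusted p = 0.0575), although 7 of 19 other settings called it (adjusted p from 0.0115 to 0.787). *Cd80* rose by 0.29 ± 0.06 and 0.36 ± 0.06 (adjusted p = 0.0011 and 2.3e-04), *Icosl* by 0.37 ± 0.10 in both (adjusted p = 0.0066 and 0.0080) and *Pdcd1lg2* by 0.34 ± 0.07 and 0.38 ± 0.07 (adjusted p = 4.9e-04 and 2.1e-04). These small rises depend on the scaling. The IFN-β libraries had TMM factors of 0.914 to 0.941, and with library totals in place of TMM the median of all genes moved to -0.273 in shControl and -0.221 in sh*Ppargc1b* cells, and *Cd80* (0.05 and 0.15) and *Icosl* (0.13 and 0.17) were no longer called in either kind of cell, nor *Pdcd1lg2* in shControl cells (0.10). *Cd70* had 3, 3 and 8 counts after IFN-β in shControl cells, against 9, 2 and 1 before (0.23 ± 0.69, adjusted p = 0.811), and 18, 11 and 16 counts in sh*Ppargc1b* cells, against 5, 5 and 4 (1.92 ± 0.56, adjusted p = 0.0113). As this is the group through which *Cd70* entered the test, the call is no support for a difference. Even the highest *Cd70* group mean was 0.281 ± 0.0822 CPM.

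Pairs of ligands with a related receptor were set against each other per kilobase. The *Cd86* to *Cd80* ratio was 3.0 ± 0.143 in shControl and 2.60 ± 0.236 in sh*Ppargc1b* cells with IFN-β (SD, n = 3), so that the ratio was the higher in sh*Ppargc1b* cells without IFN-β and the lower with it. *Tnfsf4* to *Tnfsf9* was 0.810 ± 0.150 and 2.09 ± 0.0811 without IFN-β and 2.0 ± 0.178 and 3.69 ± 0.200 with it. For both ratios no hairpin or IFN-β comparison overlapped, and each gave the smallest exact permutation p of 0.1. *Cd274* to *Pdcd1lg2* was 4.81 ± 0.683 and 5.10 ± 0.383 without and 9.22 ± 1.02 and 8.81 ± 1.23 with IFN-β. This ratio overlapped between the hairpins (exact permutation p = 0.6 and 0.5, two-sided) and separated by IFN-β (exact permutation p = 0.1).

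A list of 56 related genes, of which 51 were tested, covers other ligands of T and NK cells, the receptors that the members bind, and signalling genes. Without IFN-β, the sh*Ppargc1b* cells had 23 of the 51 called higher and 6 called lower, and under IFN-β these counts were 14 and 10. Of all genes tested, 12.4% were called higher and 11.1% lower without IFN-β, and 11.5% and 12.7% with it, and the counts by kind below stand beside the same shares. Their medians were 0.15 and 0.01. By kind, 6 of 18 other ligands were higher and 5 lower without IFN-β, and 4 higher and 7 lower with it. Of 24 signalling genes 14 were higher and 1 lower without, and 7 higher and 3 lower with IFN-β.

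Among other ligands, *Cd200*, which engages the inhibitory receptor CD200R, rose from 10.5 ± 0.18 to 24.8 ± 2.0 CPM (SD, n = 3, 1.23 ± 0.08, adjusted p = 4.9e-08), and *Cd83*, a maturation marker of dendritic cells, by 1.03 ± 0.10 (adjusted p = 2.3e-06). With IFN-β both were higher by a like amount, 1.11 ± 0.07 and 1.04 ± 0.10 (adjusted p = 1.1e-07 and 2.4e-06). Lower were *Icam2*, another LFA-1 ligand (-0.85 ± 0.17 and -0.93 ± 0.17 without and with IFN-β, adjusted p = 0.0020 and 9.8e-04), *Tnfrsf14*, which binds BTLA and LIGHT (-0.44 ± 0.08 and -0.63 ± 0.07, adjusted p = 5.8e-04 and 1.9e-05), and *Vsir*, which encodes the checkpoint VISTA (-0.59 ± 0.06 and -0.49 ± 0.06, adjusted p = 5.7e-06 and 4.0e-05). These lower genes thus include an LFA-1 ligand as well as a checkpoint gene. *Tnfsf10*, which encodes TRAIL, was the strongest riser with IFN-β in shControl cells (5.93 ± 0.13) and was lower in sh*Ppargc1b* cells with IFN-β (-0.62 ± 0.09, adjusted p = 1.5e-04).

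Of the 12 counter-receptors 9 were tested, and 3 were called higher in sh*Ppargc1b* cells in both states, beside 12.4% and 11.5% of all genes. *Tnfrsf9*, which encodes the CD137 receptor of *Tnfsf9*, was itself abundant, at 399.9 ± 66.3 CPM in shControl and 879 ± 150.1 CPM in sh*Ppargc1b* cells (1.14 ± 0.15, adjusted p = 5.9e-05), with 1.12 ± 0.15 in the presence of IFN-β (adjusted p = 7.4e-05). *Icos* was higher by 1.31 ± 0.25 and 0.78 ± 0.24 (adjusted p = 0.0013 and 0.0270) at no more than 1.95 CPM in any library, and *Rgmb*, which binds PD-L2, by 0.19 ± 0.06 and 0.21 ± 0.06 (adjusted p = 0.0285 and 0.0137). The integrin genes *Itgal*, *Itgb2* and *Itgam*, the partners of ICAM-1, and *Cd28*, *Pdcd1* and *Tnfrsf4* were not called in the hairpin comparisons. *Cd40lg*, *Ctla4* and *Cd27* were below the filter, with at most 3, 13 and 5 counts in a library.

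Among signalling genes, the 5 subunit genes of NF-κB and the TNF receptor adaptor gene *Traf1* are given here, chosen after their values were seen. In unstimulated sh*Ppargc1b* cells *Relb* (0.42 ± 0.05, adjusted p = 8.6e-06), *Rel* (0.40 ± 0.05, adjusted p = 2.7e-05), *Nfkb2* (0.28 ± 0.04, adjusted p = 7.0e-05), *Nfkb1* (0.24 ± 0.05, adjusted p = 0.0011) and *Traf1* (0.51 ± 0.04, adjusted p = 4.9e-07) were higher. *Rela* was not called (0.05 ± 0.04, adjusted p = 0.485). With IFN-β, *Relb* (0.44 ± 0.05), *Rel* (0.22 ± 0.05), *Nfkb2* (0.24 ± 0.04) and *Traf1* (0.33 ± 0.04) were higher (adjusted p = 6.5e-06, 0.0047, 2.5e-04 and 3.1e-05), and *Nfkb1* (0.07 ± 0.05, adjusted p = 0.270) and *Rela* (-0.06 ± 0.04, adjusted p = 0.320) were not called. Of the other *Traf* genes listed, *Traf2*, *Traf3* and *Traf5* were called higher without IFN-β (0.15, 0.18 and 0.18) and *Traf6* was not called (-0.01). With IFN-β none of these was called (-0.04, 0.07, 0.02 and -0.12). *Stat2*, which transmits the type I interferon signal, rose by 2.66 ± 0.05 with IFN-β in shControl cells (adjusted p = 3.0e-15). For IFN-β, 34 of the 51 related genes were higher and 4 lower in shControl cells, beside 23.7% and 24.6% of all genes. The falls were *Tnfsf14*, which encodes LIGHT (-1.83 ± 0.25, adjusted p = 1.7e-05, at 0.626 to 3.17 CPM in those libraries and under the level set for naming), *Vsir* (-0.93 ± 0.06, adjusted p = 5.8e-09), *Cd28* (-0.80 ± 0.14, adjusted p = 2.0e-04) and *Irf4* (-0.29 ± 0.06, adjusted p = 9.4e-04). In sh*Ppargc1b* cells 29 were higher and 4 lower, beside 21.4% and 21.2%. In the interaction 0 of the 51 were called by edgeR, beside 0.73% of all genes. At an unadjusted p under 0.05 there were 13, a count for which the share of all genes is not given here. DESeq2 called 3, limma-voom 1, the fit with no low-count filter 7 and the fit with a block by run of library codes 3.

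**Figure D5:**
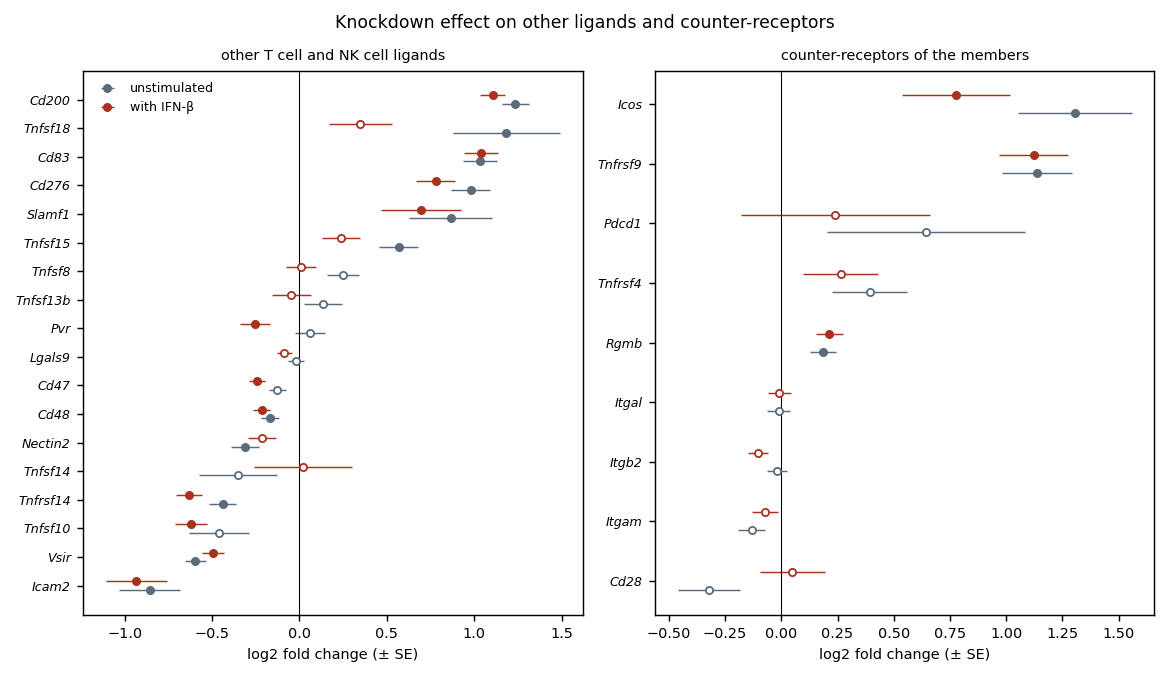
Log2 fold change in the hairpin comparison of the 18 other ligands and 9 counter-receptors tested, without and with IFN-β, with bars of 1 SE and filled points for an adjusted p under 0.05. *Cd200*, *Cd83* and *Tnfrsf9* lie near or above 1 in both states and *Icam2*, the lowest of the other ligands, at -0.85 and -0.93.

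The genes whose level followed a member most closely over the 12 libraries were sought among 8750 genes, by the root mean square difference of centred log2 CPM. For *Cd86* they were *Marcksl1* (0.123) and *Scimp* (0.136), for *Cd40* AW011738 (0.148) and *Usp18* (0.160), for *Cd274* *Cflar* (0.0648) and B430306N03Rik (0.0885), and for *Icam1* *Hspa5* (0.0578) and *Npc2* (0.0729). No other member was among them. As these genes were chosen for nearness over the same libraries, like changes in the comparisons follow from the choice. *Usp18*, an interferon-induced protease of ISG15, was higher by 0.58 ± 0.10 without IFN-β (adjusted p = 5.0e-04) and changed by 0.01 ± 0.09 with it (adjusted p = 0.934), beside 0.76 and -0.01 for *Cd40*.

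Marker lists of the cells that such a culture can hold were summed in each library. Counts of markers called, in this paragraph and the next, stand beside the shares of all genes tested. Those were 12.4% higher and 11.1% lower without IFN-β, and 11.5% and 12.7% with it. All 9 dendritic-like markers were detected, with sums of 4434 to 5233 CPM in shControl and 5199 to 5976 CPM in sh*Ppargc1b* libraries, and 5 of the 9 were called higher in the latter. With IFN-β the sums were 4854 to 5849 and 5843 to 6743 CPM, and 6 of 9 were higher. Macrophage-like sums were 2903 to 3050 and 2744 to 2819 CPM without IFN-β, with 1 of 10 markers higher and 3 lower, and 3609 to 3840 and 3252 to 3367 CPM with it, with 1 higher and 4 lower. Both dendritic-like ranges overlapped narrowly between the hairpins. *Ccr7*, *Fscn1*, *Zbtb46*, *Flt3* and *Itgax* were called higher in both states and *Dpp4* with IFN-β only, whereas the MHC class II genes *H2-Aa*, *H2-Ab1* and *Cd74* were not called in either.

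Other lists were far lower. Neutrophil-like sums were 42.6 to 97.3 CPM in shControl and 91.9 to 161 CPM in sh*Ppargc1b* libraries without IFN-β, and 40.0 to 102 and 88.6 to 166 CPM with it, with 2 of 9 markers higher in both states. Mast cell or basophil-like sums were 8.71 to 16.8 and 22.1 to 25.7 CPM without, and 7.64 to 14.9 and 12.8 to 21.2 CPM with IFN-β. Of its 7 genes 6 were tested, and 2 were higher in both states. No eosinophil-like marker was called in a hairpin comparison (23.1 to 69.1 CPM over all libraries). B cell-like sums were 0.491 to 1.20 CPM, and T or NK cell-like sums 0.0876 to 0.586 CPM with none of the 7 genes abundant enough to test. Endothelial or stromal-like sums were 28.9 to 34.4 and 38.4 to 42.4 CPM without IFN-β and 191 to 233 and 237 to 244 CPM with it, most of it *Kdr*, and 2 of 6 markers were higher in unstimulated sh*Ppargc1b* cells and none with IFN-β. The part of these marker differences in the changes of the 10 members was not tested.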

How the data were processed

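RNA of 12 BMDC libraries (4 groups of 3) was depleted of ribosomal RNA and sequenced as 100 bp pairs. The authors trimmed the reads with Trim Galore 0.6.0, aligned them to mm10 with STAR (2.7.8a in the submitters' processing notes) and deposited raw counts per gene, with GENCODE M20 as annotation. The strand setting is not given in the sources used here. Groups came from the sample titles. The counts were tested with edgeR 4.0.16 in R 4.3.3 (filterByExpr at count 10 and total 15, TMM scaling, quasi-likelihood F-test over the 4 groups, Benjamini-Hochberg over 18228 genes, threshold 0.05), which was tested on simulated data. SEs are the log2 fold change over the root of F. CPM used TMM-scaled totals, and RPKM the union of exons. Total counts were 49919648 to 77726101. Libraries of a group differed by more than counting error (chi-square per gene of 8.58 to 21.4 for pairs), so depth alone did not set the precision. A handful of counts, as for *Cd70*, bears mostly counting error.

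Alternatives were relative log expression (RLE) size factors, library totals, no low-count filter, a run block, DESeq2 1.42.0, limma-voom (limma 3.58.1), fits of the 2 groups compared, and leaving out each library. Group means under other scalings, and ratios without each library, were added after the data were seen. Permutation tests were exact and two-sided.

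The library codes in the titles form 3 runs of consecutive numbers, which were checked for pairing. Deviations from the group means correlated at 0.0276 to 0.146 within runs and at -0.154 to 0.0565 between them. The correlations were weak but all positive within runs, so this check does not show that the runs are unpaired. The labels name no pairing, so the main fit has no run block, and a fit with the block is given as an alternative. The members, the related genes and the marker lists were chosen with earlier results of these data known. Besides the members, *Ppargc1b* and all counter-receptors, the 3 largest called rises and falls of each list comparison whose mean log2 CPM was 1 or more, and the 2 nearest genes of 4 members, were named. A gene that this rule would name is not reported here. Positions are from GENCODE M21 (GRCm38) and promoters from RefSeq.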

Additional observations from a re-analysis of the deposited data

Results flagged for a closer look

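The hairpin effect differed between cells with and without IFN-β for 3 members by a test of the difference itself (edgeR interaction, adjusted over all genes). The log2 fold change of sh*Ppargc1b* against shControl was lower with IFN-β by 0.80 for *Tnfsf4* (an interaction of -0.80 ± 0.12, adjusted p = 0.0065), by 0.77 for *Cd40* (-0.77 ± 0.14, adjusted p = 0.0214) and by 0.57 for *Cd86* (-0.57 ± 0.06, adjusted p = 7.4e-04). For *Tnfsf4* and *Cd86* the mean difference in CPM was the larger with IFN-β, by 10.3 ± 3.83 and 10.9 ± 5.67 CPM (SE), which was not tested, and for *Cd40* 5 of the 12 libraries could each remove the call when left out.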

How the results depend on the processing

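The counts of members called, here with *Cd70*, kept within 1.5 times their value in every setting. Leaving out 1 library gave 6 to 7 members for the hairpin without IFN-β, 4 to 5 with it, 9 and 8 to 10 for IFN-β in shControl and sh*Ppargc1b* cells, and 2 to 3 for the interaction. For the related genes the interaction count of 0 became 1 with RLE size factors, 7 with no low-count filter, 3 with DESeq2, 1 with limma-voom and 0 to 2 without 1 library (2 without shControl replicate 2).

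The runs of library codes were not taken as pairing. With the replicate block by run, 8 members in place of 6 were called in the hairpin comparison without IFN-β. Added were *Cd274* (adjusted p = 0.0072) and *Icosl* (0.0158). *Tnfsf9* was called for IFN-β in sh*Ppargc1b* cells (0.0360) and the *Icam1* interaction as well (0.0345), and 3 related genes were called in the interaction. Over all 18228 genes the block also raised the calls of these comparisons, from 4295 to 5041, from 7760 to 8388 and from 133 to 425. For 10 of the 12 libraries, every correlation with their own run was higher than any with another run.

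Values that turned direction were all uncalled, and the cause was not tested. With library totals *Cd40* with IFN-β was at 0.0128 and *Cd70* in shControl at -0.0046, with no low-count filter *Cd40* was at 0.0009 and the *Icosl* interaction at -0.0089, and in the fit of 2 groups *Cd40* was at 0.01. The *Icosl* interaction was -0.0046 with RLE size factors, -0.0069 with the run block, -0.0035 with DESeq2 and -0.0189 with limma-voom. Leaving out 1 library gave the ranges -0.0282 to 0.0581 for *Cd274*, -0.0646 to 0.0345 for *Cd40* and -0.005 to 0.1812 for *Tnfsf9* in the hairpin comparison with IFN-β, and -0.0015 to 0.128 for *Cd80*, -0.1024 to 0.1382 for *Icosl* and -0.0321 to 0.118 for *Pdcd1lg2* in the interaction. *Cd70* ranged from -0.3682 to 1.4257 for the hairpin without IFN-β and from -0.2229 to 1.5719 for IFN-β in shControl cells, both highest without shControl replicate 1.

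The *Cd274* hairpin change without IFN-β was called with no low-count filter (0.0024), with the run block, and without shControl replicate 2 (0.0338) or sh*Ppargc1b* replicate 3 (0.0431). The *Cd40* interaction was lost without shControl replicate 1 (0.0507) or 3 (0.103), sh*Ppargc1b* replicate 2 (0.0783) or 3 (0.0799), or shControl with IFN-β replicate 2 (0.0522). *Cd70* in sh*Ppargc1b* cells lost its IFN-β call without unstimulated sh*Ppargc1b* replicate 3 (0.0526). With so few counts, depth limits what can be said of *Cd70*.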
